A study of Mus musculus with 6 samples.

Results

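The genes described here are 33 genes of fatty acid metabolism: 16 of synthesis, desaturation and elongation, and 17 of activation, storage and oxidation. They were taken by gene symbol from a list made with earlier results of these data known, and all 33 symbols were found among the 54532 genes of the deposited table. RNA was sequenced in bulk from MB49, a bladder cancer cell line of a male mouse, in its Y-positive form. The comparison set 3 libraries of CRISPR Y-KO cells, labelled as a CRISPR knockout of Y, against 3 libraries of CRISPR Y-Scr cells, which carried a non-targeting guide RNA. Both groups belong to a CRISPR experiment in which transduced cells were sorted for a red fluorescent protein (tRFP) and expanded from single cells, per the labels' protocols. Which guide RNA made the Y-KO cells is not stated in the labels. All 6 libraries are labelled as batch 1, and as a cell line as well as tumor tissue. The labels do not say whether libraries of a group came from separate clones or cultures, so loss of Y and a difference between clones cannot be told apart, and p-values cover no more than the spread among these 6 samples, which may be technical.

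Cells build fatty acids from citrate that leaves the mitochondrion: it is split to acetyl-CoA, carboxylated to malonyl-CoA and assembled into palmitate, which is then lengthened and desaturated. Malonyl-CoA also inhibits the carnitine palmitoyltransferase that admits fatty acids to mitochondria, so synthesis and oxidation are usually opposed. Long-chain fatty acids must be joined to CoA before they are burned or built into phospholipids and triglycerides, and triglycerides are kept in droplets coated by perilipins. Many tumor lines make their own fatty acids, and much of the synthesis pathway is known to be controlled by the SREBP transcription factors.

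The libraries held 15698510 to 24633158 counts, and 12907 genes passed the filter on low counts. Y-KO and Y-Scr libraries separated on the first principal component (70.8% of the variance). The label check was clear: 4 Y-linked genes, Ddx3y, Eif2s3y, Kdm5d and Uty, summed to 0 CPM (counts per 1000000 counts, on TMM-scaled library sizes) in each Y-KO library, against 370.1 to 430.6 CPM in Y-Scr libraries. Of the 12907 genes, edgeR's quasi-likelihood test called 5633 (43.6%) at an adjusted p under 0.05, 2667 higher (20.7%) and 2966 lower (23.0%) in Y-KO, so a call is common in these data. Of 15 urothelial and epithelial markers, 4 were at 0 in all libraries (Krt20, Upk3a, Epcam and Cdh1), and the 15 summed to 4021 to 4328 CPM in Y-KO and 3360 to 3728 CPM in Y-Scr, nearly all of it Krt8 and Krt18. Of the 5 tested, Krt8 (log2 fold change 0.36) and Krt19 (2.37) rose, Gata3 fell (−1.48), and Krt14 and Krt18 passed no test; Krt19 had 7.53 ± 0.574 CPM in Y-KO and 1.42 ± 0.371 in Y-Scr, and Gata3 had 2.81 ± 0.768 CPM in Y-KO and 7.80 ± 0.333 in Y-Scr (SD, n = 3 each). Of 7 adipocyte markers, which matter most beside lipid genes, 4 were at 0 in all libraries (Adipoq, Lep, Cfd and Plin1) and none passed the filter; their sum was 0.0566 to 0.124 CPM in Y-KO and 0 to 0.423 CPM in Y-Scr. Of 8 immune markers, Ptprc and Cd3e were among those at 0, and the sum, nearly all Cd68, was 97.6 to 105 CPM in Y-KO and 113 to 122 CPM in Y-Scr. Both of the 2 tested immune markers fell (log2 fold changes −0.80 and −0.17), as did 23.0% of all tested genes. The part of these markers in the lipid results was not tested.

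Most of the listed and tested genes of fatty acid synthesis and desaturation rose in Y-KO cells, and listed genes of fatty acid use moved both ways. Of 11 tested synthesis and desaturation genes, 8 rose (72.7%, against 20.7% of all tested genes) and 1 fell (9.09%, against 23.0%). Their median log2 fold change was 0.51. The list was made with earlier results of these data known, so these shares do not describe the whole pathway. Among 16 further tested synthesis genes outside the list, 2 rose and 7 fell, with a median log2 fold change of −0.22. That median was −0.09 with the length trend removed and −0.05 with the length and GC trend removed. These further genes include Mlycd, which degrades malonyl-CoA, and the mitochondrial malic enzyme genes Me2 and Me3. Of 17 tested activation, storage and oxidation genes, 4 rose (23.5%) and 3 fell (17.6%), shares near those of all genes, with a median of 0.04; over all tested genes the median was −0.01. The summed level of the synthesis and desaturation genes was 3530 to 3953 CPM in Y-KO and 2079 to 2388 CPM in Y-Scr, most of it Scd2. The difference between these groups of genes was not tested. In bulk RNA, fewer cells expressing a gene and less RNA per cell cannot be told apart. The 3 Y-KO and 3 Y-Scr libraries did not overlap for 19 of the 28 tested genes (67.9%), beside 52.9% of all tested genes. The other 5 genes, Me1, Elovl4, Fads1, Fads2 and Fads3, had too few counts to be tested.

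**Figure D1:**
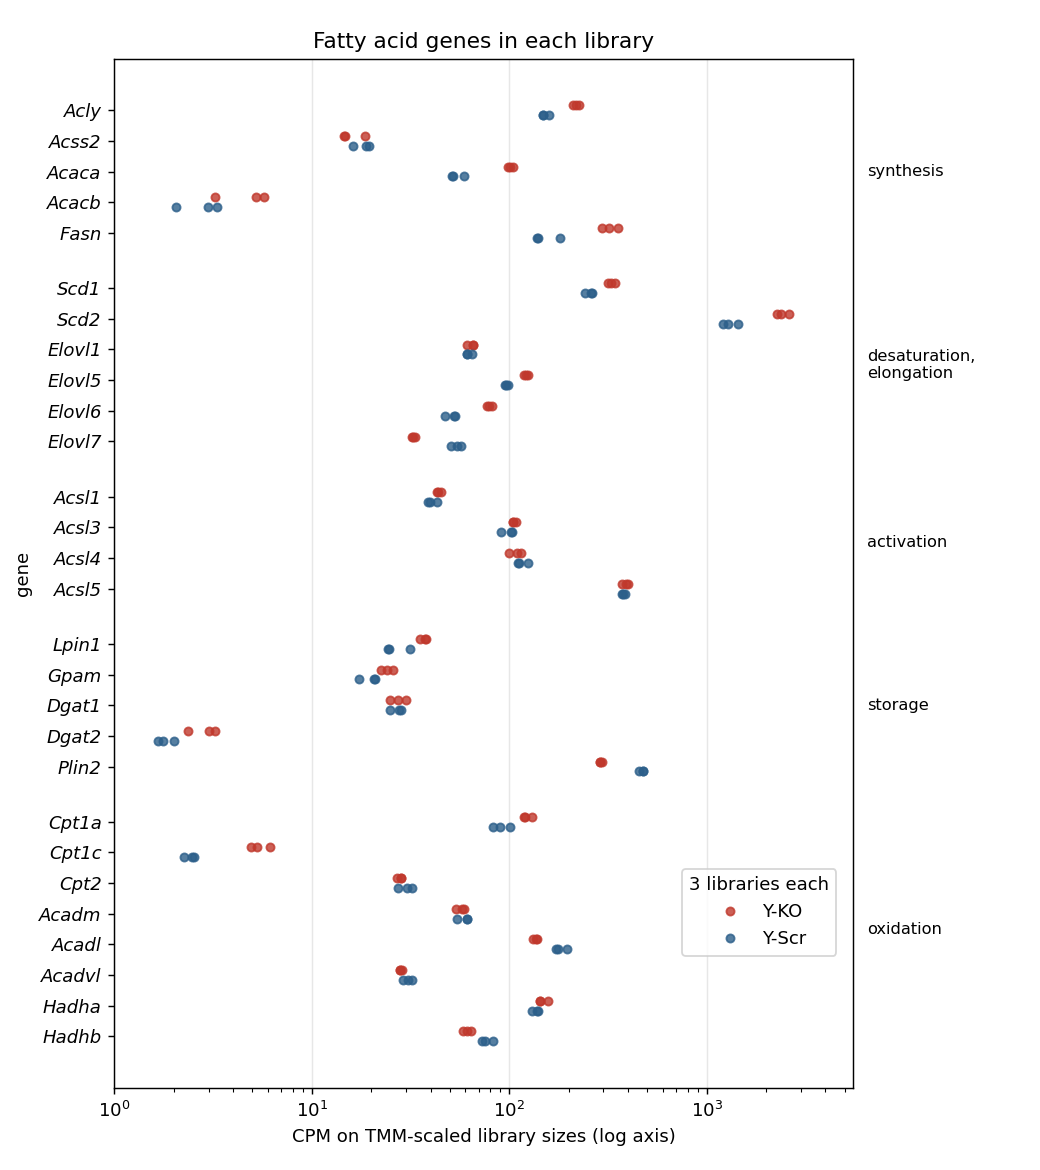
CPM on TMM-scaled library sizes (log axis) of the 28 tested fatty acid genes, 1 point per library, Y-KO above Y-Scr in each row. The Y-KO points of Fasn (294 to 358 CPM) lie right of all Y-Scr points (138 to 181 CPM), while those of Plin2 (287 to 296 CPM) lie left of them (455 to 477 CPM).

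The chain from citrate to palmitate rose at each of its main steps. Fasn, fatty acid synthase, which assembles palmitate, had 294, 358 and 322 CPM in Y-KO libraries, against 181, 138 and 139 CPM in Y-Scr libraries. The groups did not overlap, although the first Y-Scr library stood above the other 2; the ratio was 2.13-fold, a log2 fold change of 1.09 ± 0.11 (SE; edgeR's quasi-likelihood test, adjusted p = 2.0e-05). Acaca, acetyl-CoA carboxylase 1, which makes the malonyl-CoA for synthesis, had 98.6, 105 and 101 CPM in Y-KO and 59.1, 51.5 and 51.9 CPM in Y-Scr. Every Y-KO value was above every Y-Scr value, and the ratio was 1.87-fold (log2 fold change 0.91 ± 0.07, edgeR adjusted p = 1.2e-08). Acly, ATP citrate lyase, which splits citrate to acetyl-CoA, had 225, 217 and 209.9 CPM in Y-KO and 159, 148 and 149 CPM in Y-Scr, again with no overlap (log2 fold change 0.51 ± 0.06, edgeR adjusted p = 1.8e-06). These 3 genes lie apart on chromosome 11 (GRCm38): Acaca at chr11:84129672-84401651, Acly at chr11:100476353-100528000 and Fasn at chr11:120805846-120824547.

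The carboxylase of the mitochondrial surface, Acacb, whose malonyl-CoA is known to restrain carnitine palmitoyltransferase, was low. It had 3.22, 5.73 and 5.21 CPM in Y-KO and 2.97, 2.06 and 3.30 CPM in Y-Scr, so the first Y-KO library lay below the highest Y-Scr library. It rose by edgeR's quasi-likelihood test (log2 fold change 0.75 ± 0.26, adjusted p = 0.027), but the call was lost with limma-voom (adjusted p = 0.0578) and without Y-KO library 2 (0.138), Y-KO library 3 (0.0912) or Y-Scr library 2 (0.114). Acss2, which makes acetyl-CoA from acetate, the alternative to citrate, had 18.6, 14.5 and 14.7 CPM in Y-KO and 18.7, 16.2 and 19.5 CPM in Y-Scr. Acss2 overlaps Gss and Ggt7 on the opposite strand; its groups of libraries overlapped, and the test was not passed (log2 fold change −0.18 ± 0.12, edgeR adjusted p = 0.25). Me1, the cytosolic malic enzyme that supplies NADPH for synthesis, was nearly absent, with 2 counts over the Y-KO libraries and 14 over the Y-Scr libraries, a ratio of Y-Scr to Y-KO of 6.51 with an exact 95% counting interval of 1.5 to 59.0.

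Desaturation was led by Scd2, a stearoyl-CoA desaturase that makes monounsaturated fatty acids. Scd2 had 2275, 2610.3 and 2372 CPM in Y-KO and 1435, 1215 and 1276 CPM in Y-Scr. The groups were far apart, with a ratio of 1.85-fold (log2 fold change 0.89 ± 0.07, edgeR's quasi-likelihood test, adjusted p = 7.4e-09). Its neighbour and close paralog Scd1 had 316, 343 and 328 CPM in Y-KO and 263, 241 and 259 CPM in Y-Scr, with no overlap and a smaller difference (log2 fold change 0.37 ± 0.06, edgeR adjusted p = 9.6e-05). As near copies, these paralogs can share reads, and the labels do not say how such reads were counted, so their separate values are uncertain. The Scd2 share of the counts per kilobase of both genes was 86.5, 87.1 and 86.5% in Y-KO and 82.9, 81.7 and 81.4% in Y-Scr. By this share the libraries of the groups did not overlap; the difference of 4.70 percentage points had a two-sided exact permutation p of 0.1, the smallest that 3 against 3 libraries allow (0.14 adjusted over 14 shares). The desaturases of polyunsaturated fatty acids were near or at 0: Fads2 had 0 counts in all 6 libraries, Fads3 had 5, 2 and 0 counts in Y-KO and 7, 3 and 7 in Y-Scr, and Fads1 had 2, 1 and 5 counts in Y-KO and 0 in each Y-Scr library. Against a floor of 3 counts over the Y-Scr group, the ratio of Y-KO to Y-Scr for Fads1 was 2.87, from 8 counts in all. The counting error of those 8 counts is not included, so 2.87 is not a lower bound.

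The elongases, which add carbon pairs to fatty acyl-CoA, moved in opposite directions. Elovl6, which lengthens palmitate to stearate, had 77.0, 81.4 and 78.7 CPM in Y-KO and 52.6, 53.1 and 47.5 CPM in Y-Scr, with no overlap (log2 fold change 0.63 ± 0.08, edgeR's quasi-likelihood test, adjusted p = 1.9e-06). Elovl5, which acts on polyunsaturated fatty acids, had 125, 119 and 122 CPM in Y-KO and 95.7, 95.9 and 98.8 CPM in Y-Scr. Every Y-KO value was higher, and it rose too (log2 fold change 0.33 ± 0.06, edgeR adjusted p = 0.00026). Elovl7, an elongase of long saturated chains, had 32.2, 33.4 and 32.7 CPM in Y-KO and 54.6, 56.7 and 50.8 CPM in Y-Scr. It was the single listed synthesis or desaturation gene that fell, with all Y-KO values below all Y-Scr values (log2 fold change −0.72 ± 0.08, edgeR adjusted p = 1.3e-06). Elovl1, an elongase of very long chains, had 61.1 to 65.9 CPM in Y-KO and 61.3 to 64.9 CPM in Y-Scr and passed no test (log2 fold change 0.04 ± 0.07, edgeR adjusted p = 0.71); Elovl4 had 0 counts in all 6 libraries. Elovl1 overlaps Cdc20 on the opposite strand, and whether the counting used strand is not stated, so reads from the shared stretch are uncertain. Overlaps were read from whole gene spans, not from exons.

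The share of each elongase within its family was compared as a value per library. Elovl7 held 10.4 ± 0.256% of the family's counts per kilobase in Y-KO and 18.7 ± 0.821% in Y-Scr (SD, n = 3 each; exact permutation p = 0.1). Elovl6 held 15.6 ± 0.525% in Y-KO and 11.0 ± 0.518% in Y-Scr, and Elovl5 held 44.0 ± 0.992% in Y-KO and 38.3 ± 1.28% in Y-Scr (exact permutation p = 0.1 for each). The libraries of the groups did not overlap for these 3 shares, but no share can pass 0.05 in a design of 3 against 3. The Elovl1 share did not overlap either, at 30.0 ± 0.883% in Y-KO and 31.9 ± 0.750% in Y-Scr (exact permutation p = 0.1). The level of Elovl1 had no call, and shares of a family add up to its whole, so they depend on each other. By contrast, the Acsl5 share of the long-chain acyl-CoA synthetases was 62.3 ± 0.235% in Y-KO and 62.0 ± 1.73% in Y-Scr (exact permutation p = 0.7). The Acacb share of the carboxylases was 7.56 ± 1.82% in Y-KO and 8.31 ± 1.76% in Y-Scr (exact permutation p = 0.7). The Acsl4 share of the synthetases was 15.5 ± 0.592% in Y-KO and 17.0 ± 0.981% in Y-Scr, with no overlap (exact permutation p = 0.1).

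**Figure D2:**
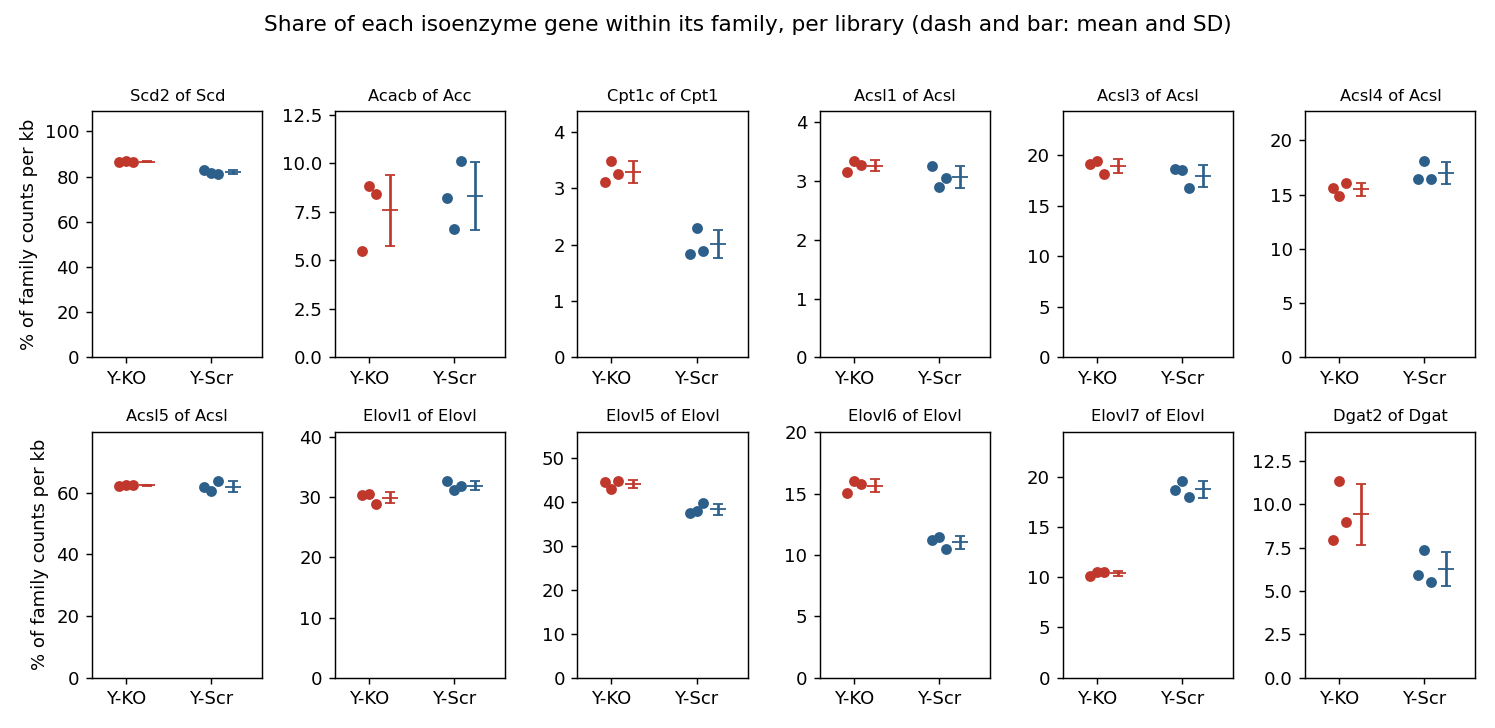
Share (%) of each isoenzyme gene in its family's counts per kilobase, 1 point per library, with the mean and SD beside them, Y-KO left of Y-Scr; each axis starts at 0. Elovl7 lies at 10.4 ± 0.256% in Y-KO and at 18.7 ± 0.821% in Y-Scr, while Acsl5 lies at 62.3 ± 0.235% in Y-KO and 62.0 ± 1.73% in Y-Scr.

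Promoter sequence is shown for 3 genes. Fasn is the synthesis gene with the largest rise, Elovl5 rose less but has the E-box described below, and Plin2 is the listed lipid droplet gene that fell. Each sequence is the 250 bases before the RefSeq gene start (GRCm38.p6), on the strand of the gene, 5′ to 3′. Capitals mark matches on either strand to CCAAT, the NF-Y motif (ATTGG on the other strand), to the E-box CACGTG, or to AGGTCA, the half-site of nuclear receptors such as the PPARs (TGACCT on the other strand).
Fasn, chr11:120824548-120824797, minus strand: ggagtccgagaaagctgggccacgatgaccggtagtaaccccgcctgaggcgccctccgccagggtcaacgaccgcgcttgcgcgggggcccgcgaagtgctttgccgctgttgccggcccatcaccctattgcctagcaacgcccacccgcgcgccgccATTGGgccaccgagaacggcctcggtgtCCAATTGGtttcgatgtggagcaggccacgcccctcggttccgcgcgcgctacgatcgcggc
Elovl5, chr9:77917115-77917364, plus strand: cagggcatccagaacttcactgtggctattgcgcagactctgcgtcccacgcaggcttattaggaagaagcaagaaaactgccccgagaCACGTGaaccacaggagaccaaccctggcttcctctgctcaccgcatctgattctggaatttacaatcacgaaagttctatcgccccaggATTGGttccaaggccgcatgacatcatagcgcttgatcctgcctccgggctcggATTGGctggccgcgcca
Plin2, chr4:86670060-86670309, minus strand: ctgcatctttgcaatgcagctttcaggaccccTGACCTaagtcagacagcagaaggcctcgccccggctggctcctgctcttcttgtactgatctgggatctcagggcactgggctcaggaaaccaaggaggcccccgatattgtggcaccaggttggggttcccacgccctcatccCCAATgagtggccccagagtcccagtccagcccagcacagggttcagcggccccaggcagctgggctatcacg
In Fasn the matches to CCAAT overlap in the run CCAATTGG. Of the 33 genes, 28 had such a window; Scd1, Scd2, Fads1, Dgat1 and Dgat2 had none. CCAAT was in the windows of 14 of the 28 genes, 6 of 10 that rose, 1 of 4 that fell and 5 of 10 tested without a call, and in 33.8% of all 32851 windows. AGGTCA was in 10 of the 28 (14.0% of all windows), in 6 of 10 that rose, 1 of 4 that fell and 3 of 10 tested without a call. The E-box was in Elovl5 alone of the 28 (6.02% of all windows), and TCACNCCAC, a sterol regulatory element, in Acsl1 alone (1.05% of all windows). Genes with several windows counted once, with a match in any window, while the shares of all windows counted each window, so these are unlike measures. A match is a description of letters, not a binding site.

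**Figure D3:**
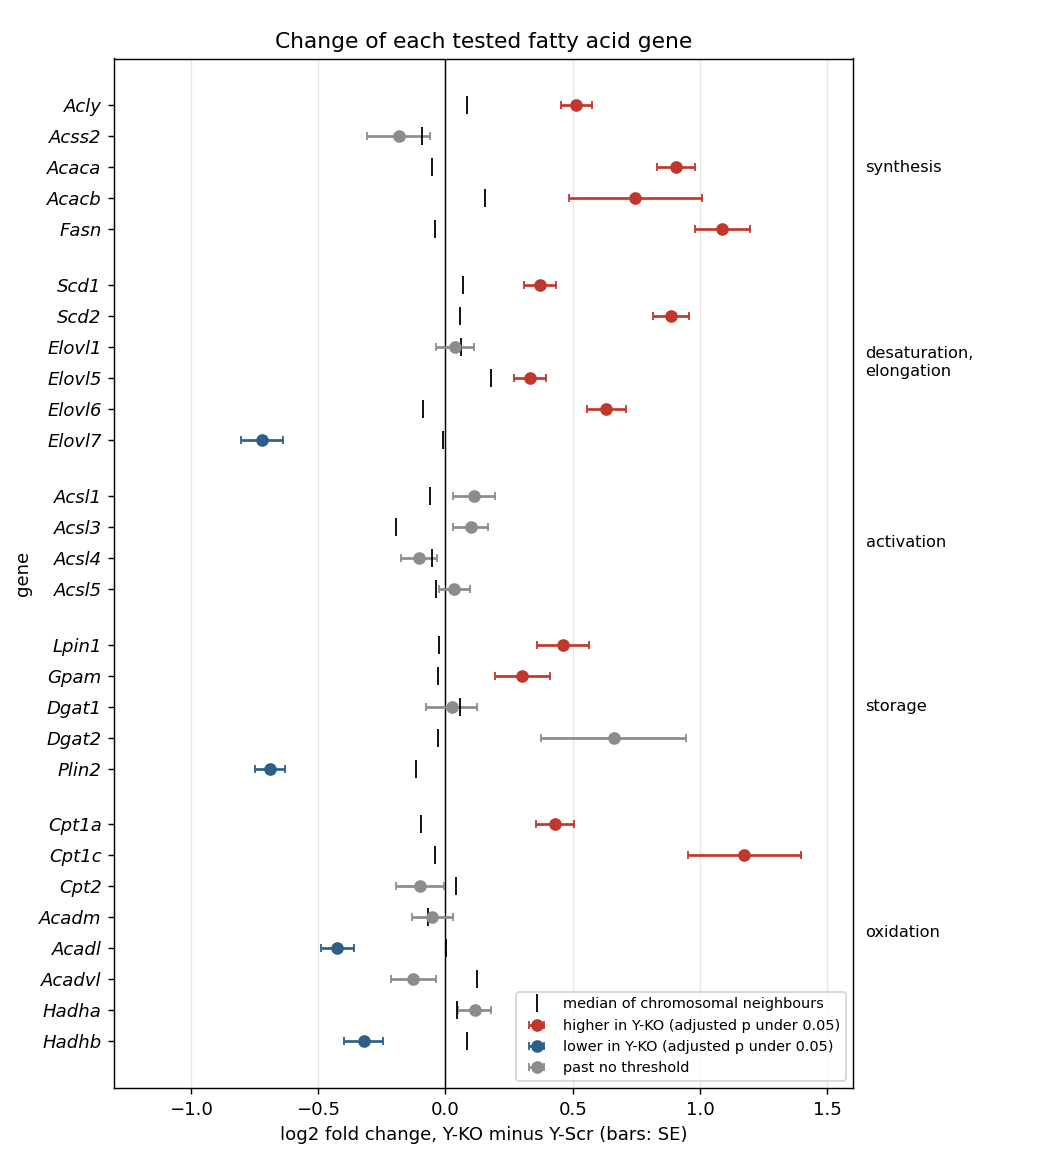
Log2 fold change, Y-KO minus Y-Scr, of the 28 tested fatty acid genes with its SE, with the median of the neighbouring tested genes on the chromosome as a tick. Synthesis and desaturation genes lie mostly right of 0 (8 of 11 higher), and the neighbours' medians stay between −0.19 and 0.18.

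None of the 4 listed genes of fatty acid activation passed the test. Outside the list, the acyl-CoA synthetase gene Acsbg1 fell (log2 fold change −1.43, edgeR's quasi-likelihood test, adjusted p = 1.4e-11). The 4 listed acyl-CoA synthetases, which join fatty acids to CoA, had log2 fold changes of −0.10 (Acsl4) to 0.11 (Acsl1). Of these, 0 of 4 passed the threshold by edgeR's quasi-likelihood test (adjusted p = 0.25 to 0.67), beside 43.6% of all tested genes. With only 4 genes, the count says little about activation as a process. The count was also 0 at an unadjusted p under 0.05, and 0 with DESeq2 or limma-voom. With the length trend removed, Acsl3 passed the threshold. Acsl5, the most abundant of them per kilobase, had 392, 374 and 401 CPM in Y-KO and 379, 374 and 386 CPM in Y-Scr, which overlapped. Acsl4, which prefers arachidonic acid, had 109, 99.2 and 114 CPM in Y-KO and 112, 125 and 110.3 CPM in Y-Scr, also overlapping. Acsl5 overlaps Zdhhc6 on the opposite strand, and Acsl3 overlaps Utp14b on the same strand, so reads from the stretches that these pairs share are uncertain.

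Among the 5 listed storage genes, the droplet coat fell while enzymes of glycerolipid synthesis were higher or passed no test. This contrast holds for the listed genes only. Outside the list, the acyltransferase gene Gpat3 fell (log2 fold change −1.20), and of 16 further tested storage genes 0 rose and 4 fell. Plin2, perilipin 2, which coats lipid droplets, had 287, 289 and 296 CPM in Y-KO and 455, 474 and 477 CPM in Y-Scr. The groups stood far apart with little spread within each (log2 fold change −0.69 ± 0.06, edgeR's quasi-likelihood test, adjusted p = 2.3e-08); its promoter is printed above. Lpin1, a phosphatidate phosphatase on the way to triglyceride, had 37.7, 37.4 and 35.5 CPM in Y-KO and 31.5, 24.6 and 24.4 CPM in Y-Scr, with no overlap (log2 fold change 0.46 ± 0.10, edgeR adjusted p = 0.0012). Gpam, the mitochondrial acyltransferase of the first step, had 25.7, 24.0 and 22.4 CPM in Y-KO and 20.6, 20.9 and 17.3 CPM in Y-Scr. It rose by a small amount (log2 fold change 0.30 ± 0.11, edgeR adjusted p = 0.029), and the call was lost with DESeq2 (adjusted p = 0.0593) and without Y-KO library 1 (0.125), Y-KO library 2 (0.0671) or Y-Scr library 3 (0.128). Of the acyltransferases that complete triglyceride, Dgat1 had 25.02 to 30.1 CPM in Y-KO and 24.9 to 28.3 CPM in Y-Scr (edgeR adjusted p = 0.86). Dgat2 had 2.36, 3.24 and 3.00 CPM in Y-KO and 1.77, 2.00 and 1.67 CPM in Y-Scr; these did not overlap, but the test was not passed (log2 fold change 0.66 ± 0.28, edgeR adjusted p = 0.067).

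Of 8 tested oxidation genes, 2 rose and 2 fell (25% each), shares near the 20.7% and 23.0% of all tested genes. Those that rose were the carnitine palmitoyltransferase 1 genes. Cpt1a, the rate-limiting carnitine palmitoyltransferase of the outer mitochondrial membrane, had 118, 131 and 120.3 CPM in Y-KO and 101, 83.1 and 90.0 CPM in Y-Scr. All Y-KO values were higher (log2 fold change 0.43 ± 0.07, edgeR's quasi-likelihood test, adjusted p = 0.00012). Cpt1c, its brain-type relative in the endoplasmic reticulum, was low but had the largest fold of the tested 28, with 4.94, 6.16 and 5.27 CPM in Y-KO and 2.47, 2.54 and 2.26 CPM in Y-Scr. The groups did not overlap (log2 fold change 1.17 ± 0.22, edgeR adjusted p = 0.00028), and Cpt1c still held no more than 3.28 ± 0.193% of the pair's counts per kilobase in Y-KO and 2.01 ± 0.248% in Y-Scr. Cpt2, the inner-membrane partner, had 27.0 to 28.4 CPM in Y-KO and 27.3 to 32.0 CPM in Y-Scr, with no call (edgeR adjusted p = 0.41).

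Of the 3 acyl-CoA dehydrogenases listed here, which carry out the first step of each oxidation cycle, the long-chain enzyme fell and the others passed no test. Acadl had 137, 132 and 136 CPM in Y-KO and 172, 197 and 176 CPM in Y-Scr, with no overlap (log2 fold change −0.42 ± 0.07, edgeR's quasi-likelihood test, adjusted p = 3.6e-05). That call was lost once the trends on gene length and GC content were removed (log2 fold change −0.11, adjusted p = 0.101). Acadm, for medium chains, had log2 fold change −0.05 ± 0.08 (edgeR adjusted p = 0.63), and Acadvl, for very long chains, −0.13 ± 0.09 (edgeR adjusted p = 0.28). Acadvl overlaps Dvl2 on the opposite strand, so its reads from the shared stretch are uncertain.

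Hadha and Hadhb encode the subunits of the mitochondrial trifunctional protein, which completes the cycle for long chains. They lie head to head on chromosome 5 with 272 bases between their RefSeq starts. The deposited positions differ and put them closer, with Hadha (minus strand) ending at 30155162 and Hadhb (plus strand) starting at 30155248. Hadhb had 58.6, 61.3 and 64.3 CPM in Y-KO and 75.4, 82.6 and 72.5 CPM in Y-Scr, and fell (log2 fold change −0.32 ± 0.08, edgeR's quasi-likelihood test, adjusted p = 0.0020). Hadha had 158, 143 and 143 CPM in Y-KO and 131, 138 and 140.4 CPM in Y-Scr; its groups did not overlap either, in the opposite direction, but it passed no test (log2 fold change 0.11 ± 0.06, edgeR adjusted p = 0.16). The log2 ratio of Hadhb to Hadha was −1.43, −1.22 and −1.15 in Y-KO and −0.80, −0.74 and −0.95 in Y-Scr, a difference of −0.43 with no overlap (two-sided exact permutation p = 0.1, the smallest this design allows). This pair was chosen for a ratio after its values were seen.

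Levels can be compared between genes only per kilobase of gene length. That length is the deposited value, and the levels and ranks depend on how it was measured. On that scale Scd2 was the highest of the 33 in both groups, with 444 ± 31.7 CPM per kilobase in Y-KO and 240.0 ± 20.9 in Y-Scr (SD, n = 3 each), and Plin2 came next with 82.8 ± 1.32 in Y-KO and 133 ± 3.49 in Y-Scr. In Y-KO, Acsl5 (80.0 ± 2.75 CPM per kilobase) lay below Plin2 with overlapping SD ranges, and Scd1 (68.1 ± 2.82) within that of Acadl (67.4 ± 1.49). In Y-Scr, Acadl came after Plin2 with 90.5 ± 6.79 CPM per kilobase, above Acsl5 with 78.0 ± 1.27. Fasn ranked 8 in Y-KO, with 29.6 ± 2.92 CPM per kilobase, and 14 in Y-Scr, with 13.9 ± 2.23. Among tested genes, the lowest levels were those of Acacb, Dgat2 and Cpt1c, each under 1 CPM per kilobase in both groups.

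The changes were set beside the genes around them and beside trends over all genes. For each gene, the median log2 fold change of up to 50 neighbouring tested genes, 25 on each side, was taken. For the 16 genes with a call it lay between −0.12 (Plin2) and 0.18 (Elovl5), nearer to 0 than the gene itself for each of them. These genes were picked for a change, while a median over many genes tends to lie near 0. The comparison is therefore a description, and a regional effect was not tested. Over all tested genes, the median log2 fold change was −0.14 among the shortest 20% of genes and 0.14 among the longest 20%, and −0.10 at the lowest 20% of GC content and 0.09 at the highest 20%. None of the 28 genes was among the shortest, and 7 were among the longest: Acss2, Acaca, Acacb, Fasn, Acsl1, Lpin1 and Hadha. After removal of both trends from each library, the log2 fold change was 0.75 for Fasn, 0.74 for Acaca, 0.49 for Acly, 0.91 for Scd2, −0.56 for Plin2 and −0.49 for Elovl7, all still past the threshold by edgeR's quasi-likelihood test. That alternative moved Elovl5 to 0.51 and ended the calls of Acacb (0.45, adjusted p = 0.150) and Acadl. It also moved the median over all tested genes to 0.054, from −0.010.

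Genes outside the 33 were read as lists. Of 20 tested regulators of lipid genes, 7 rose (35.0%, against 20.7% of all tested genes) and 5 fell (25%, against 23.0%), with a median log2 fold change of 0.01. Srebf1, which encodes the SREBP-1 factor of fatty acid synthesis genes, had 299, 309.8 and 300.1 CPM in Y-KO and 223, 206 and 221 CPM in Y-Scr, with no overlap (log2 fold change 0.48 ± 0.06, edgeR's quasi-likelihood test, adjusted p = 3.5e-06). Its escort Scap had 70.2 ± 2.51 CPM in Y-KO and 47.8 ± 1.10 in Y-Scr (SD, n = 3 each; log2 fold change 0.55, edgeR adjusted p = 8.6e-06). Of the anchors that hold SREBPs in the endoplasmic reticulum, Insig1 rose (138 ± 3.88 CPM in Y-KO, 115 ± 3.14 in Y-Scr; log2 fold change 0.26, edgeR adjusted p = 0.0020) and Insig2 fell (90.7 ± 3.86 CPM in Y-KO, 132 ± 7.35 in Y-Scr; log2 fold change −0.54, edgeR adjusted p = 2.5e-06). Srebf2, for the SREBP-2 factor of cholesterol genes, had log2 fold change 0.32 ± 0.06 (edgeR adjusted p = 0.00032) and lost its call with the length and GC trend removed (0.10, adjusted p = 0.115). Rxra, a nuclear receptor partner of the PPARs, rose (log2 fold change 0.63, edgeR adjusted p = 4.3e-05), while Ppara, the factor known for driving oxidation genes in liver, had 0 counts in all 6 libraries. With the length and GC trend removed, the log2 fold change was 0.29 for Srebf1, 0.36 for Scap, 0.50 for Insig1 and −0.36 for Insig2, each still past the threshold.

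In cholesterol synthesis, the sister pathway, 7 of 20 tested genes rose (35.0%, against 20.7% of all) and 2 fell (10%, against 23.0%). The count that fell was 1 without Y-KO library 2 or 3. The median log2 fold change of the 20 genes was 0.14. Dhcr7, a late reductase, had 90.3 ± 1.27 CPM in Y-KO and 59.2 ± 3.81 in Y-Scr (SD, n = 3 each; log2 fold change 0.61, edgeR's quasi-likelihood test, adjusted p = 1.7e-06). Sqle, squalene epoxidase, also rose (log2 fold change 0.31), and Msmo1, a sterol methyl oxidase, fell (−0.36), each past the edgeR threshold. The count that rose was 11 with the length trend removed and 12 with the length and GC trend removed.

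Genes of the same processes outside the 33 moved both ways. Of 16 further tested synthesis genes, 2 rose (12.5%, against 20.7% of all tested genes) and 7 fell (43.8%, against 23.0%). The count that fell was 3 with the length trend removed. The count that rose was 1 without Y-KO library 1, Y-KO library 3 or Y-Scr library 2 and with the replicate block, and 4 with the length and GC trend removed. Me2, the mitochondrial malic enzyme, had 150.3 ± 2.40 CPM in Y-KO and 107 ± 3.32 in Y-Scr (SD, n = 3 each; log2 fold change 0.49, edgeR's quasi-likelihood test, adjusted p = 2.9e-06). Mlycd, which degrades malonyl-CoA, had 8.01 ± 0.231 CPM in Y-KO and 14.0 ± 0.712 in Y-Scr (log2 fold change −0.80, edgeR adjusted p = 6.8e-05). With the length and GC trend removed, the log2 fold change of Me2 was 0.77. Me3, a second mitochondrial malic enzyme, fell by 1.20 on the log2 scale, and Hacd3, a dehydratase of elongation, fell by 0.29 but lost its call with the length trend removed (adjusted p = 0.0842).

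Of 28 further tested oxidation genes, 4 rose (14.3%, against 20.7% of all tested genes) and 8 fell (28.6%, against 23.0%), with a median log2 fold change of −0.15. The count that rose was 2 without Y-KO library 2 or without Y-Scr library 2. Echs1, the short-chain enoyl-CoA hydratase, had 114 ± 4.21 CPM in Y-KO and 172 ± 11.6 in Y-Scr (SD, n = 3 each; log2 fold change −0.59, edgeR's quasi-likelihood test, adjusted p = 7.0e-07). Etfa, which passes electrons from the dehydrogenases, fell by 0.54 on the log2 scale, and the peroxisomal thiolase gene Acaa1a fell by 0.46. With the length and GC trend removed, Etfa was at −0.25.

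Of 16 further tested storage genes, 0 rose and 4 fell by edgeR's quasi-likelihood test (25% fell, a share near the 23.0% of all tested genes). At an unadjusted p under 0.05 the count that rose was 1, with DESeq2 and limma-voom it was 0, with edgeR on DESeq2's size factors or without Y-Scr library 3 it was 1, and with the length trend removed it was 3. Gpat3, an acyltransferase of the endoplasmic reticulum, had 32.1, 30.7 and 30.1 CPM in Y-KO and 70.6, 72.5 and 70.4 CPM in Y-Scr. The groups were wide apart (log2 fold change −1.20 ± 0.08, edgeR's quasi-likelihood test, adjusted p = 4.3e-10), in the opposite direction to Gpam of the same step. The droplet protein Hilpda, an inhibitor of lipolysis, had 27.6 ± 1.66 CPM in Y-KO and 46.5 ± 3.24 in Y-Scr (SD, n = 3 each; log2 fold change −0.75, edgeR adjusted p = 1.9e-06), and fell as Plin2 did. Abhd5, an activator of lipolysis, fell by 0.42 on the log2 scale, and Agpat4 by 0.36, a call lost with the length trend removed (adjusted p = 0.0527). Of 6 tested genes of uptake and activation, Acsbg1, an acyl-CoA synthetase first known from brain, had 37.3, 34.9 and 33.9 CPM in Y-KO and 96.0, 97.2 and 93.0 CPM in Y-Scr, a 2.69-fold higher level in Y-Scr (log2 fold change −1.43 ± 0.08, edgeR adjusted p = 1.4e-11). Acbd3 rose by a small amount (0.21, edgeR adjusted p = 0.035), a call lost without the low-count filter (0.0702), with the replicate block (0.0848) and without Y-KO library 1 (0.0736), 2 (0.103) or 3 (0.0822) or Y-Scr library 2 (0.108) or 3 (0.0545).

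**Figure D4:**
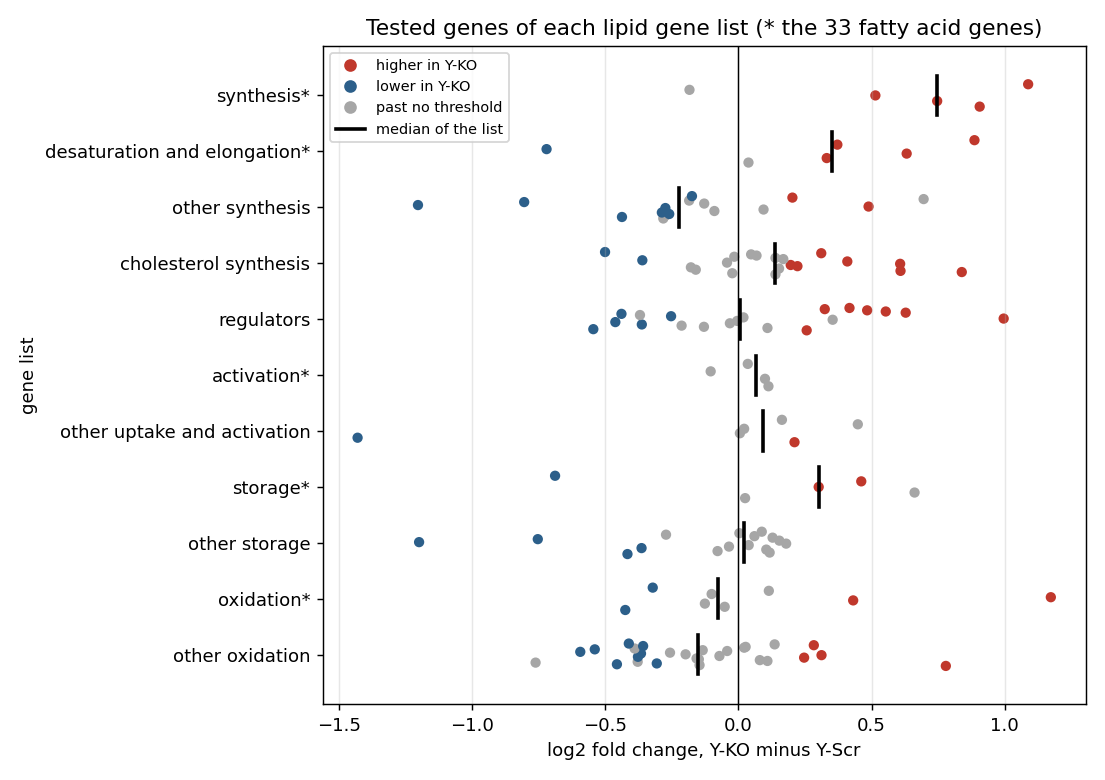
Log2 fold change, Y-KO minus Y-Scr, of every tested gene (points) and the median (bar) of each lipid gene list; an asterisk marks lists that make up the 33 fatty acid genes. The synthesis list has its median at 0.75, further synthesis genes at −0.22 and cholesterol synthesis at 0.14.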

How the data were processed

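Stranded poly-A RNA-seq libraries were sequenced from 3 Y-KO and 3 Y-Scr samples, grouped by GEO's labels. The authors deposited whole-number counts per gene without normalization, with a gene length. The submitters' processing notes name STAR 2.5.2b, featureCounts 1.5.3, Trimmomatic 0.39, DESeq2, MultiQC 1.13 and FastQC 0.12.1, and the builds mm39 and GRCm39; settings are not given in the sources used here. Of 54495 genes shared with GENCODE M21, 53548 (98.3%) had the same position on GRCm38, so positions are given as GRCm38 (26 of the 33 genes matched exactly, and the positions printed are the files').

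The counts were tested with edgeR 4.0.16 (R 4.3.3): TMM scaling, filterByExpr, robust quasi-likelihood fit, Benjamini-Hochberg adjustment over 12907 genes, threshold 0.05. Scripts were first tested on simulated data. Shares and ratios used exact permutation over libraries, and sequences came from RefSeq. Depth was 15698510 to 24633158 counts per library, and 3 counts, the limit that a count of 0 allows, equal 0.122 to 0.191 CPM; intervals and floors cover counting error only. Alternatives were other scalings, DESeq2 1.42.0, limma-voom 3.58.1, other filters, the replicate block, removed trends on length and GC content, and leaving out each library. The trend on length and GC content together was chosen after the data were seen.

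The 33 genes and the other lists were chosen with earlier results of these data known. Of the other lists, each gives up to 4 genes past the threshold with the smallest adjusted p; Srebf1, Srebf2, Insig1, Ppara and 4 Y-linked genes are always named. Some genes that this rule names are not reported here. Hsd17b8 was the 1 listed symbol not matched. Of 4 endothelial and 6 fibroblast markers, the sums were 0.560 to 0.859 and 17.6 to 19.9 CPM in Y-KO, and 0.544 to 0.752 and 11.3 to 15.8 CPM in Y-Scr. No 2 libraries of a group agreed within sampling noise (chi-square over its degrees of freedom, 3.44 to 14.8).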

Additional observations from a re-analysis of the deposited data

How the results depend on the processing

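Of the 16 fatty acid genes with a call, 13 kept it under all 16 alternatives and all 16 kept their direction; Acacb, Gpam and Acadl are the exceptions given above. Of the 12 tested without a call, 5 (Acss2, Elovl1, Acsl3, Acsl5 and Dgat2) passed the threshold with a trend on length, or on length and GC content, removed. The synthesis and desaturation genes that rose numbered 7 to 9, and those that fell 1, or 2 with the length and GC trend removed. The activation, storage and oxidation genes that rose numbered 3 to 6 and those that fell 2 to 3. Over all genes, 3312 rose and 2498 fell with the length trend removed. With the length and GC trend removed, 3249 rose and 2433 fell, against 2667 and 2966 without removal. The median log2 fold change of all tested genes also moved up, from −0.010 to 0.052 (length) and 0.054 (length and GC). The cause, and the part of this shift in the gained and lost calls, were not tested. Depth limits Me1, Fads1 and Fads3, which had too few counts to test.

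Deviations of libraries with the same replicate number correlated at −0.06 to −0.02, so no shared deviation was seen. With so few libraries, this cannot decide whether same-numbered libraries shared a day or culture, which the labels do not state. With the replicate block, 2333 genes rose and 2627 fell in all, and the counts for the fatty acid genes were the same 8, 1, 4 and 3. With shares taken from counts not divided by length, the Y-KO minus Y-Scr difference was 7.24 percentage points for Elovl6, 4.29 for Elovl5 and −9.42 for Elovl7.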
